A study of Mus musculus with 6 samples.

Results

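The genes described here are those of CBP, its paralogue p300 and 8 other lysine acetyltransferases, in hippocampal RNA from mice that lost CBP in excitatory forebrain neurons. They were taken by name from the raw count matrix (Crebbp, Ep300, Kat2a, Kat2b, Kat5, Kat6a, Kat6b, Kat7, Kat8 and Hat1), which makes 10 of the 55471 genes in the matrix, and all 10 passed the filter on low counts. The question was how much Crebbp RNA was left in CBP-ifKOs and whether any other acetyltransferase differed in level where CBP was removed.

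The 6 libraries came from hippocampi of C57BL/6 mice (C57BL/6J in the study's methods) aged 3 to 6 months, 3 libraries per group, and all mice had received tamoxifen by gavage on alternate days. CBP-ifKOs were bred from the Crebbp f/f strain, in which both alleles are floxed, and carried Camk2a_creERT2, a tamoxifen-inducible Cre recombinase driven by the Camk2a promoter, which is active in excitatory neurons of the forebrain. Per the study's methods each library held the pooled hippocampi of 3 females, and the recombined allele still encodes a truncated CBP without acetyltransferase activity, so that counts over the whole gene are not a measure of intact CBP. The labels conflict on the Control group: its description names Camk2a_creERT2, whereas the protocol text gives littermates without the recombinase, and whether Controls carried floxed alleles was not stated.

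Lysine acetyltransferases move the acetyl group of acetyl-CoA onto lysines of histones and other proteins, a modification that loosens chromatin and is read by bromodomain proteins. CBP and p300 form a family of their own, large coactivators that are recruited by many transcription factors, CREB among them, and acetylate histones at enhancers and promoters. The GNAT family includes Kat2a (GCN5), Kat2b (PCAF) and Hat1, and the MYST family includes Kat5 (TIP60), Kat6a (MOZ), Kat6b (MORF), Kat7 (HBO1) and Kat8 (MOF). Most of these enzymes work inside multi-subunit complexes that choose their targets. In neurons CBP is known above all for its part in activity-driven transcription and memory.

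Total counts per library ran from 10199008 to 14950257, and between 142 and 2222 reads were counted per library for each of the 10 genes. Levels below are CPM, read counts scaled to a common library size with TMM factors, and differences are log2 fold changes of CBP-ifKO against Control from the quasi-likelihood test of edgeR, with p-values adjusted over all 17981 genes tested and a threshold of 0.05. As a check of the driver, Esr1, whose human counterpart supplies the ligand-binding segment of the recombinase, was at 6.29, 6.27 and 5.65 CPM in Control replicates 1 to 3 and at 67.0, 69.4 and 63.6 CPM in the CBP-ifKO libraries (log2 fold change 3.45, edgeR adjusted p 7.90e-13). It was low in all 3 Control libraries and high in all 3 CBP-ifKO libraries. The study describes raised Esr1 as a feature of mice with this driver, and its methods give littermates without the recombinase as controls. The Control levels of Esr1 thus match the protocol text rather than the sample description. Camk2a itself, whose promoter drives the transgene, stood at 1939 ± 215 CPM in the Controls and 2066 ± 130 CPM in the CBP-ifKOs (SD over 3 libraries each, edgeR adjusted p 0.516). Control replicate 2 stood apart from the other Control libraries most for 3 of the 10 genes, with Crebbp lower by 0.42, Ep300 by 0.45 and Kat6a by 0.43 on the log2 scale. In the other direction, it was higher by 0.29 for Kat8 and by 0.22 for Kat5. These genes are given below with and without it.

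Crebbp RNA in the hippocampus of CBP-ifKOs stood at 51.5% of its Control level. Crebbp (ENSMUSG00000022521, GRCm38 chr16:4081328-4213997, minus strand) was counted 2222, 1821 and 2102 times in the Control libraries and 1121, 1326 and 1208 times in the CBP-ifKO libraries. After scaling, the Control libraries stood at 208.6, 156.4 and 208.5 CPM, and replicates 1 to 3 of the CBP-ifKOs were at 108.6, 87.1 and 99.4 CPM. The groups did not overlap, although Control replicate 2 was nearer to the CBP-ifKOs than the other Controls were. As a share of the Control mean, 56.8%, 45.6% and 52.0% was left in the 3 CBP-ifKO libraries. Crebbp fell by 0.96 on the log2 scale (95% interval -1.17 to -0.75, edgeR adjusted p 3.63e-05), a fold of 0.514 with bounds of 0.444 and 0.595. Without Control replicate 2 the log2 fold change was -1.08 and the share left 47.5%. In RNA of whole tissue, fewer cells of a type and less RNA per cell cannot be told apart, and the counts do not separate neurons that lost the floxed segment from cells in which the Camk2a promoter is silent.

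None of the other 9 acetyltransferase genes passed the threshold in either direction, with edgeR or with DESeq2, and none had an unadjusted p under 0.05. Over all genes tested, edgeR called 6.39%, of which 1.4% of the genes tested were higher in CBP-ifKO and 4.99% lower (252 and 897 genes, or 514 and 667 with library totals only), and an unadjusted p under 0.05 was reached by 21.2%. The 9 log2 fold changes lay between -0.06 and 0.20, with 7 above 0 and 2 below (Kat6b and Kat7; Kat6b was at 0.0029 with library totals as the scaling), and their median was 0.07 beside -0.003 over all genes tested. In the fit over all 6 libraries, their 95% intervals reached from a loss of 12.6% (Kat7) to a gain of 35.8% (Kat8). Changes beyond these bounds lie outside every interval of that fit. With 1 library left out some bounds were wider. The upper log2 bound of Kat8 was 0.56 without Control replicate 2, and the lower log2 bound of Kat7 was -0.25 without Control replicate 3.

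**Figure D1:**
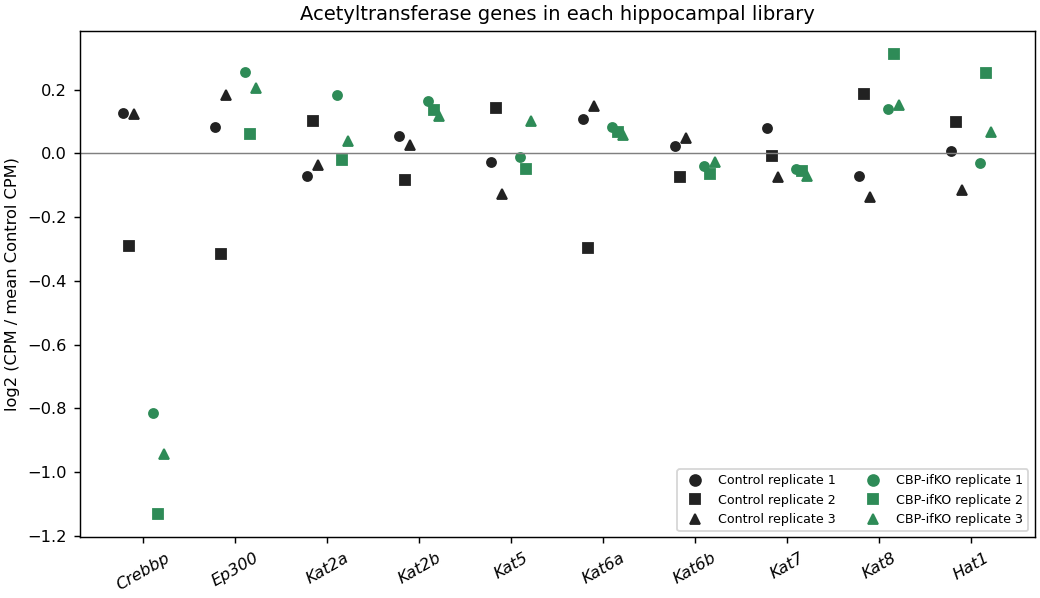
Level of each acetyltransferase gene in each of the 6 libraries as the log2 of its CPM over the mean Control CPM, with Control in black, CBP-ifKO in green and one symbol shape per replicate number. Crebbp lies below the line in all 3 CBP-ifKO libraries by more than 0.8, while the other genes scatter within about 0.3 of it, and Control replicate 2 (black square) is low for Crebbp, Ep300 and Kat6a.

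Ep300 encodes p300, the closest relative of CBP in sequence and domains. The gene (ENSMUSG00000055024, GRCm38 chr15:81585351-81652077, plus strand) was at 107.0, 81.2 and 114.6 CPM in the Control libraries and at 120.6, 105.4 and 116.3 CPM in the CBP-ifKOs. All 3 CBP-ifKO values were above the lowest Control, but the groups overlapped, with 105.4 CPM in CBP-ifKO replicate 2 below Control replicates 1 and 3. The group means ± SD of 3 libraries were 100.9 ± 17.5 and 114.1 ± 7.80 CPM, and the log2 fold change was 0.18 with a 95% interval from -0.03 to 0.38 and an edgeR adjusted p of 0.321. On the linear scale this was a difference of 13.0%, with bounds of -2.05% and 30.5%. Without Control replicate 2 the log2 fold change was 0.05 (edgeR adjusted p 0.747). Without Control replicate 3 it was 0.28 (95% interval 0.07 to 0.50, edgeR adjusted p 0.172). Ep300 was above 0 in all 16 alternative settings, between 0.05 and 0.28. Its 95% interval lay above 0 in some, such as the replicate block (0.04 to 0.34), and spanned 0 in others, such as RLE factors (-0.02 to 0.39). Of 16 alternative settings, 1 called Ep300, in which the replicate number was a block and trends with GC content and gene length were removed together (log2 fold change 0.22, edgeR adjusted p 0.0198). That setting called 10.4% of all genes tested, beside 6.39% in the main fit, and replicate numbers did not pair the libraries. For the protein, the study saw no upregulation of p300 by Western blot of hippocampal extracts from young adult CBP-ifKOs.

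**Figure D2:**
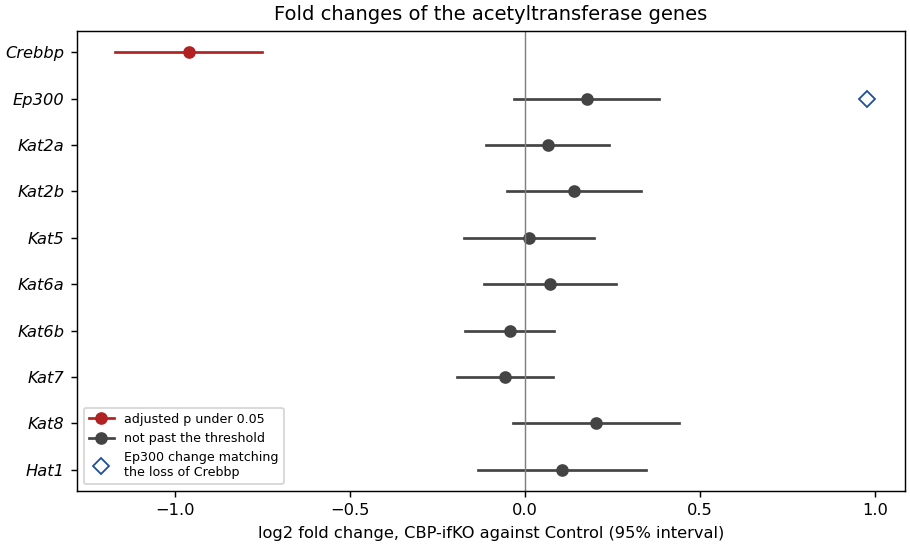
Log2 fold change of CBP-ifKO against Control for the 10 genes, each with its 95% interval from the edgeR fit. Crebbp (red) is at -0.96, and the intervals of the other 9 genes all span 0. The open diamond marks the log2 fold change of 0.98 that Ep300 would have needed to make up the Crebbp level lost per kilobase of exon.

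The ratio of both paralogues within a library does not depend on how libraries are scaled. Per kilobase of exon, Ep300 was at 0.487, 0.492 and 0.522 times the level of Crebbp in the Control libraries, and at 1.05, 1.15 and 1.11 times its level in the CBP-ifKOs. The ratio was steady among the Controls, with a coefficient of variation of 3.76%, although Crebbp and Ep300 taken alone varied by 15.7% and 17.4%, and both were low together in Control replicate 2. The mean ratio went from 0.500 ± 0.019 to 1.10 ± 0.048 (SD, n = 3), a 2.21-fold difference, and the groups did not overlap. Ep300 was therefore the lower of the pair in every Control library and the higher in every CBP-ifKO library. With the longest transcript as the length in place of all exon bases, the ratio was 0.596 in Control and 1.32 in CBP-ifKO, with the same order. Crebbp is the gene that was removed, so its own fall raises the ratio. The log2 difference of the ratio was 1.14, beside log2 fold changes of -0.96 for Crebbp and 0.18 for Ep300. The shift is thus mostly the fall of Crebbp and no measure of a rise of Ep300.

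The sum of Crebbp and Ep300 per kilobase was 22.9, 17.2 and 23.4 CPM per kb in the Controls and 16.5, 13.8 and 15.5 CPM per kb in the CBP-ifKOs. The groups did not overlap, though only 17.2 against 16.5 separated the nearest libraries. The CBP-ifKO mean of 15.3 ± 1.34 was 72.0% of the Control mean of 21.2 ± 3.43 (SD, n = 3). Crebbp made up 66.7% of the sum in Control and 47.6% in CBP-ifKO. The mean loss of Crebbp was 6.85 CPM per kb and the mean gain of Ep300 was 0.920 CPM per kb, or 13.4% of the loss. At the upper bound of its interval the gain of Ep300 would have reached 31.4% of the loss, and a rise of 1.97-fold would have been needed to match it. These shares and the needed rise hold for all exon bases as the length. With the longest transcript, Crebbp went from 17.7 to 9.09 and Ep300 from 10.6 to 11.9 CPM per kb, and the shares were not computed. The shares also rest on single libraries. Without Control replicate 2 the gain was 2.80% of the loss and 13.7% at the upper bound, and without Control replicate 3 it was 22.5% and 43.5%. All values of this paragraph are for RNA over the whole gene in whole tissue. RNA of the recombined allele can count as Crebbp, so the loss of intact CBP in excitatory neurons may be larger and was not measured.

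**Figure D3:**
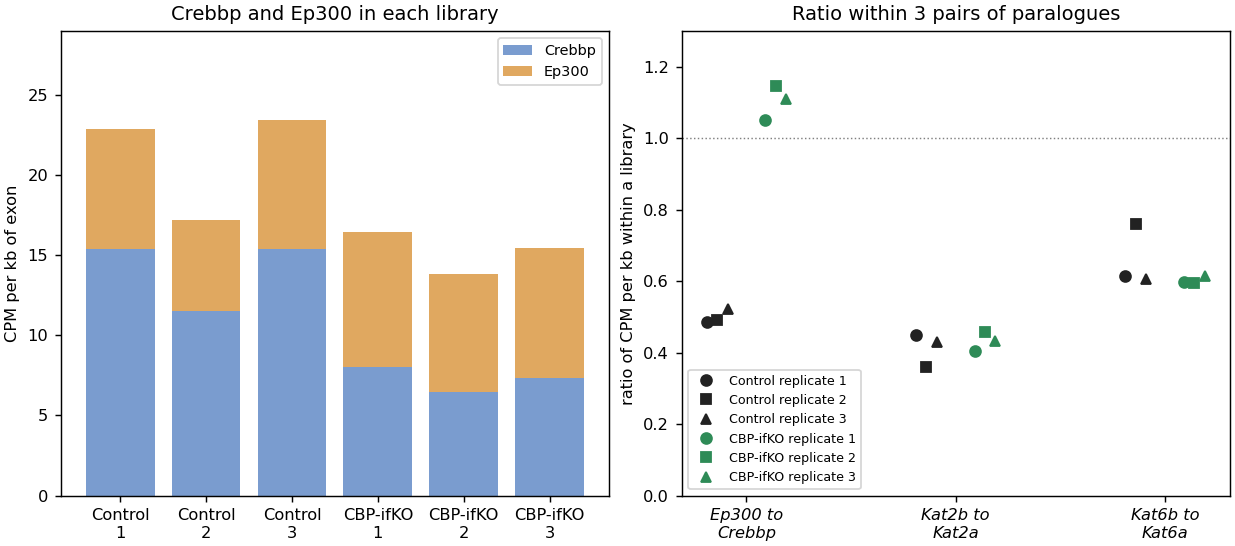
Left, Crebbp (blue) and Ep300 (orange) in CPM per kilobase of exon, stacked for each of the 6 libraries. Right, the ratio of CPM per kilobase within 3 pairs of paralogues in each library, where Ep300 to Crebbp moves from about 0.5 in Control to above 1 (dotted line) in CBP-ifKO and the other pairs overlap between groups. Of these pairs, only Ep300 to Crebbp holds the gene that was removed.

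Among the GNAT enzymes, Kat2a and Kat2b are the interchangeable catalytic subunits of the SAGA and ATAC coactivator complexes. Kat2a (ENSMUSG00000020918, GRCm38 chr11:100704746-100712465, minus strand) was at 36.8, 41.5 and 37.7 CPM in the Controls and 43.9, 38.1 and 39.7 CPM in the CBP-ifKOs. The groups overlapped, and the log2 fold change was 0.06 (95% interval -0.11 to 0.24, edgeR adjusted p 0.720). Kat2b (ENSMUSG00000000708, GRCm38 chr17:53566861-53672720, plus strand) was at 23.10, 20.96 and 22.61 CPM in the Controls and 24.91, 24.45 and 24.11 CPM in the CBP-ifKOs. It was the single gene of the 9 whose groups did not overlap, and 11.8% of all genes tested were likewise above every Control library in every CBP-ifKO library. Its log2 fold change of 0.14 did not pass the test (95% interval -0.05 to 0.33, edgeR adjusted p 0.407), and its upper bound was a gain of 25.9%. The Kat2b to Kat2a ratio per kilobase was 0.413 ± 0.046 in Control and 0.433 ± 0.026 in CBP-ifKO (SD, n = 3), a difference smaller than the spread.

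Hat1 acetylates newly made histone H4 before its deposition on DNA and is known mainly from dividing cells. The gene (ENSMUSG00000027018, GRCm38 chr2:71388958-71441622, plus strand) was at 15.30, 16.32 and 14.08 CPM in the Controls and 14.92, 18.14 and 15.96 CPM in the CBP-ifKOs. The groups overlapped (log2 fold change 0.11, 95% interval -0.13 to 0.35, edgeR adjusted p 0.653). With between 142 and 276 reads per library, Hat1 was the least counted of the 10 genes, and counting error alone came to between 6.02% and 8.39% of its value.

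Of the MYST enzymes, Kat5 is the catalytic subunit of the TIP60 complex, which acts in transcription and DNA repair. Kat5 (ENSMUSG00000024926, GRCm38 chr19:5603014-5610237, minus strand) was at 33.2, 37.4 and 31.0 CPM in the Controls and 33.6, 32.7 and 36.4 CPM in the CBP-ifKOs. The CBP-ifKO values all lay inside the Control range (log2 fold change 0.01, 95% interval -0.18 to 0.20, edgeR adjusted p 0.964), and the sign changed when any 1 of 3 libraries was left out. Without Control replicate 2 the log2 fold change of Kat5 was 0.10 (edgeR adjusted p 0.578). Of its exon bases, 12.1% overlap Rnaseh2c on the other strand, and whether reads were counted by strand was not stated.

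Kat6a and Kat6b are paralogues that acetylate histone H3 in a complex with BRPF scaffold proteins. Kat6a (ENSMUSG00000031540, GRCm38 chr8:22859535-22943259, plus strand) was at 121.4, 91.6 and 124.7 CPM in the Controls and 119.2, 117.8 and 117.3 CPM in the CBP-ifKOs. The CBP-ifKO libraries lay within 2 CPM of each other and between the Controls, and the log2 fold change of 0.07 (95% interval -0.12 to 0.26, edgeR adjusted p 0.714) became -0.05 without Control replicate 2. Kat6b (ENSMUSG00000021767, GRCm38 chr14:21481434-21672478, plus strand) was at 134.3, 125.5 and 136.5 CPM in the Controls and 128.6, 126.2 and 129.8 CPM in the CBP-ifKOs, with a log2 fold change of -0.04 (95% interval -0.17 to 0.08, edgeR adjusted p 0.745). Its groups overlapped, and its standard error of 0.060 was the smallest among the 9 genes. The Kat6b to Kat6a ratio per kilobase of exon was 0.614, 0.760 and 0.607 in Control and 0.602 ± 0.010 in CBP-ifKO (SD, n = 3), with Control replicate 2 as the high value. Which of both is the more abundant depends on the length used, since with the longest transcript the Control ratio was 1.41.

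Kat7, which works with BRPF or JADE scaffolds and is tied to replication origins and to H3 acetylation, was at 83.37, 78.42 and 74.98 CPM in the Controls and 76.37, 76.04 and 75.21 CPM in the CBP-ifKOs (ENSMUSG00000038909, GRCm38 chr11:95274259-95310246, minus strand). The CBP-ifKO values lay at the low end of the Control range, and its log2 fold change of -0.06 had the lowest upper bound of the 9 genes, a gain of 5.76% (95% interval -0.20 to 0.08, edgeR adjusted p 0.680). Kat8, the H4 acetyltransferase of the MSL and NSL complexes, was at 15.6, 18.6 and 14.9 CPM in the Controls and 18.0, 20.3 and 18.2 CPM in the CBP-ifKOs (ENSMUSG00000030801, GRCm38 chr7:127912516-127925837, plus strand). Control replicate 2 lay inside the CBP-ifKO range, so that the groups overlapped. Kat8 had the largest positive estimate of the 9 genes, a log2 fold change of 0.20 (95% interval -0.03 to 0.44, edgeR adjusted p 0.319), at between 150 and 309 reads per library. It was above 0 in all 16 alternatives, between 0.14 and 0.32, and passed the threshold in 0 of them. The highest value, 0.32, came without Control replicate 2 (95% interval 0.08 to 0.56, edgeR adjusted p 0.104). Of its exon bases, 4.22% overlap Prss8 on the other strand.

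Set side by side per kilobase of exon, the 10 genes ranged in Control from 4.57 CPM per kb for Kat2b to 14.3 for Kat7. Crebbp was second with 14.1, followed by Kat6a with 12.1, Kat2a with 11.1 and Kat5 with 9.65 CPM per kb, each overlapping its neighbour in the order. A gap separated these from Kat6b with 7.85, Ep300 with 7.07, Kat8 with 5.66 and Hat1 with 5.28 CPM per kb, which again overlapped in sequence. In CBP-ifKO, Crebbp came seventh with a mean of 7.27 CPM per kb. Its libraries ran from 6.44 to 8.02, which overlapped the ranges of Ep300 (mean 7.99), Kat6b (7.62) and Kat8 (6.52). Kat7 stayed highest with 13.7 and Kat2b lowest with 5.03 CPM per kb. With the longest transcript as the length, Kat7 and Kat2b were again first and last, Crebbp went from rank 2 to rank 8, and Kat6b rose to rank 3 in Control.

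**Figure D4:**
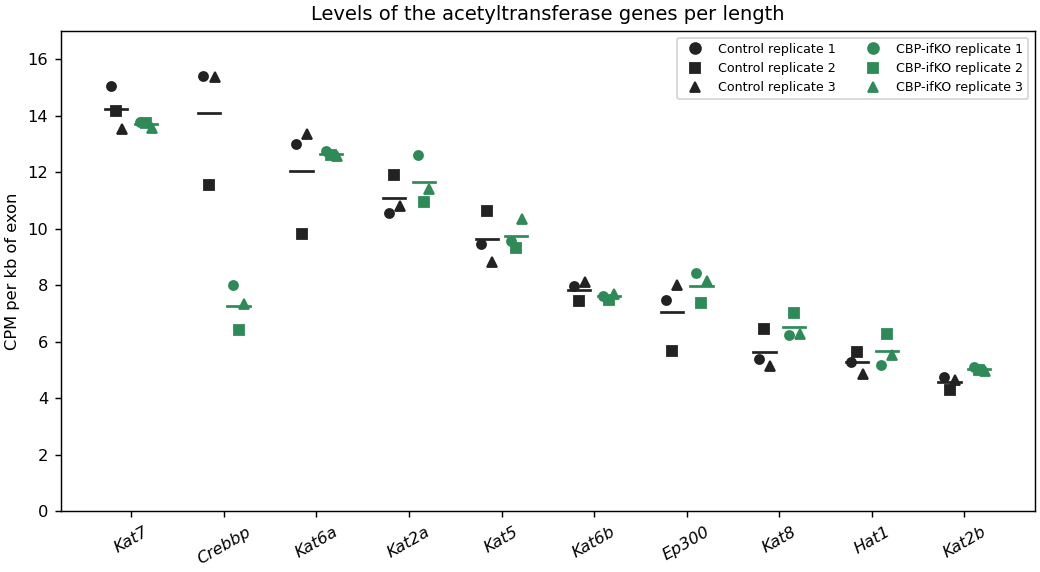
Level of each gene in CPM per kilobase of exon in the 3 Control (black) and 3 CBP-ifKO (green) libraries, in the order of the Control means, with short lines for the group means. Crebbp drops from 14.1 to 7.27 CPM per kb, to near the level of Ep300 and Kat6b, while the other means lie close together in both groups.

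Summed per kilobase over all 10 genes, the level was 91.6 ± 3.54 CPM per kb in Control and 87.9 ± 1.55 in CBP-ifKO (SD, n = 3), or 95.9% of Control. Without Crebbp, the other 9 genes summed to 77.5 ± 1.47 and 80.6 ± 0.758 CPM per kb, or 104.0%. The share of Crebbp in the summed level went from 15.4% to 8.26%, and that of Ep300 from 7.69% to 9.09%. These sums weigh transcripts alike, whatever the activity of the enzyme they encode.

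The genes that act around these enzymes were examined in 9 lists, which held 96 genes, of which 91 could be tested. None of the 91 was called in either direction by edgeR or by DESeq2, where 6.39% of all genes tested were called by edgeR. An unadjusted p under 0.05 was found for 19 genes (20.9%), beside 21.2% of all genes tested, and the groups did not overlap for 27 genes (29.7%), beside 25.6%. Of the 91 log2 fold changes, 52 were above 0 and 39 below, with a median of 0.03. Esco2, Taf9, Asf1b, Cited1 and Cited4 had too few reads to be tested.

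By role, 11 further acetyltransferases had a median log2 fold change of 0.00 and ranged from -0.08 for Kat14, a subunit of ATAC with an acetyltransferase domain, to 0.25 for Nat10, which acetylates RNA. The steroid receptor coactivators Ncoa1 (-0.01) and Ncoa3 (0.00) and the elongator acetyltransferase Elp3 (0.08) were near 0. Among 22 subunits of SAGA and ATAC the median was 0.02, from -0.15 for the deubiquitinase Usp22 to 0.26 for Mbip. The 9 partners of Kat6a, Kat6b and Kat7 had a median of 0.00, with the scaffolds Brpf1 at -0.04 and Jade2 at -0.06 and the reader Ing5 at 0.33. For 11 subunits of the MSL and NSL complexes, in which Kat8 works, the median was 0.03. In the TIP60 list, which holds the partners of Kat5, 11 of 16 genes were above 0 and the median was 0.07.

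The cofactors that bind CBP and p300 were 5 genes with a median log2 fold change of 0.04, among them the mediator subunit Med1 (0.07) and Cited2 (-0.42, edgeR adjusted p 0.174), which binds a domain present in both proteins. Of 9 genes for acetyl-CoA supply the median was 0.09, with Acly, which makes nuclear and cytosolic acetyl-CoA from citrate, at 0.11 (edgeR adjusted p 0.282), and the synthetases Acss2 and Acss1 at 0.13 and -0.21. Brd2 and Brd3, bromodomain readers of acetylated histones, were at 0.03 and -0.04. Histone chaperones and partners of Hat1 were 4 genes with a median of 0.16.

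The genes nearest to the threshold, chosen after their values were seen, came from several lists. Mcrs1, a subunit of the NSL complex, was at 10.7, 12.4 and 13.6 CPM in the Controls and 7.2, 9.5 and 9.5 CPM in the CBP-ifKOs (log2 fold change -0.47, edgeR adjusted p 0.0608). Brd8, a bromodomain subunit of the TIP60 complex, was at 76.2, 77.0 and 76.8 CPM in the Controls and 85.1, 89.1 and 90.0 CPM in the CBP-ifKOs (log2 fold change 0.20, edgeR adjusted p 0.0650). Rbbp7, the histone-binding partner of Hat1, was at 98.4, 108.6 and 97.8 CPM in the Controls and 82.4, 91.3 and 88.1 CPM in the CBP-ifKOs (log2 fold change -0.22, edgeR adjusted p 0.0665). The groups did not overlap for any of these genes, which also held for 25.6% of all genes tested. These 3 genes each passed the threshold under some of the alternatives given in the closing section.

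**Figure D5:**
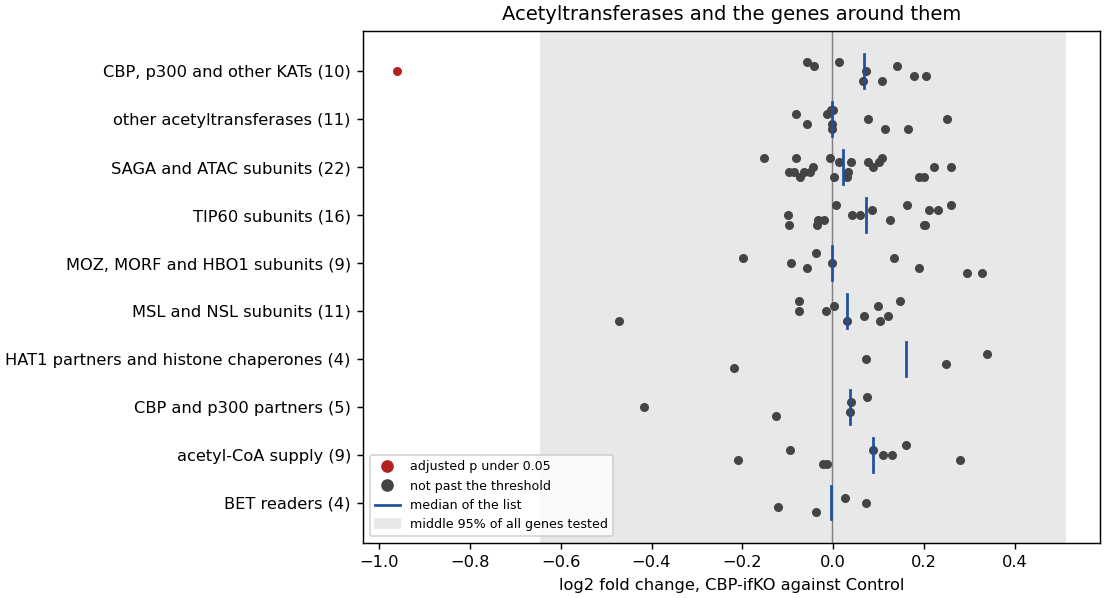
Log2 fold change of every tested gene in the 10 acetyltransferases and the 9 lists of genes around them, 1 point per gene and the number of genes in brackets, with a blue line at each list's median. The grey band, from -0.65 to 0.51, holds the middle 95% of all genes tested, and Crebbp (red) is the one gene past the threshold and the one outside the band.

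Cell type markers were set beside these values, because Crebbp was removed from one cell type of a mixed tissue. Slc17a7, the vesicular glutamate transporter of hippocampal excitatory neurons, was at 457 to 588 CPM over the libraries with a log2 fold change of -0.04 (edgeR adjusted p 0.814). Of 8 excitatory markers, 6 had a log2 fold change below 0 and 2 above. Called lower were 2, beside 4.99% of all genes tested, namely the CA1-enriched Wfs1 by 1.19 and Fibcd1 by 0.63 on the log2 scale. Grik4 (-0.22), Dsp (-0.19) and Neurod6 (-0.13) were lower without passing the threshold (edgeR adjusted p 0.113, 0.177 and 0.232). The log2 fold changes of Prox1, a dentate granule cell marker, and Neurod2 were 0.22 and 0.20 (edgeR adjusted p 0.110 and 0.102). The sum of the list ran from 1229 to 1257 CPM in Control and from 1045 to 1209 CPM in CBP-ifKO. Of 7 interneuron markers, 6 were below 0 and 1 above, and 2 were called lower, Sst by 0.51 and Slc32a1 by 0.38. The interneuron list summed to between 541 and 565 CPM in Control and between 484 and 512 CPM in CBP-ifKO. The groups did not overlap in either neuronal sum. The sums were also taken without the called markers, a choice made after the values were seen. Leaving out markers called lower narrows such a gap by construction, so the trimmed sums decide nothing about cell composition. Without Wfs1 and Fibcd1 the excitatory sum ran from 1048 to 1073 CPM in Control and from 940.2 to 1101 CPM in CBP-ifKO. Without Sst and Slc32a1 the interneuron sum ran from 445.8 to 458.9 CPM in Control and from 415.6 to 447.1 CPM in CBP-ifKO. The groups then overlapped in both sums, for interneurons only in that 447.1 lay above 445.8 CPM. No marker of astrocytes, microglia, oligodendrocytes, endothelium or choroid plexus was called, and the summed levels of these 5 lists overlapped between the groups, with 2 of 5 choroid plexus markers below the filter on low counts. The part of cell composition in the Crebbp and Ep300 values was not tested.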

How the data were processed

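Total RNA of hippocampus was sequenced by the authors as single-end reads of 50 bases. Per the labels and the study's methods, reads were checked with FastQC (0.11.8), trimmed with Trim Galore (0.6.4) and aligned to GRCm38 with STAR (2.6.1), and reads with a mapping quality over 10 were counted over the exons of Ensembl release 99 genes with Rsubread. The values the authors deposited are raw counts per gene, not normalized, with the exon length of each gene. The strand setting of the counting was not stated. Of 55471 gene identifiers, 55230 matched GENCODE M21 of the same build, from which coordinates and transcript lengths were taken.

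Groups and replicate numbers came from the sample titles. The groups were compared with the quasi-likelihood F-test of edgeR (4.0.16, R 4.3.3) on the counts over all 6 libraries, with TMM scaling and filterByExpr (minimum count 10, minimum total 15), which left 17981 genes, and Benjamini-Hochberg adjustment over all of them. DESeq2, whose Wald test the study used (1.30.1), was run as well (1.42.0). Standard errors are the log2 fold change divided by the square root of F, and 95% intervals use the total degrees of freedom of the fit. Levels per kilobase are CPM divided by the exon length in the file. The scripts were tested on simulated data. All replicate pairs differed by more than sampling noise (chi-square per degree of freedom from 2.48 to 6.10). Pooling puts 3 animals in a library, so that spreads and p-values are between pools, and whether pools came from separate litters or days was not stated.

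The acetyltransferases, the lists around them and the markers were chosen with earlier results of these data known. The rule for named genes took all 10 acetyltransferases, Esr1 and Camk2a, up to 4 genes past the threshold per list, and the 3 genes of at least 1 CPM whose log2 CPM correlated best with Crebbp and with Ep300. Genes of the lists that are named without passing the threshold were chosen after their values were seen. As alternatives, DESeq2 and limma-voom (limma 3.58.1) replaced the test; RLE factors, upper-quartile factors or library totals replaced TMM; the filter was dropped or set to at least 10 counts per library; 1 library at a time was left out; replicate numbers entered as a block; offsets for GC content and length (natural splines, 5 degrees of freedom) were added, with the block or without; and the threshold was set to 0.01. Acetylation levels and protein were not analysed here.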

Additional observations from a re-analysis of the deposited data

How the results depend on the processing

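Crebbp was called under all 16 alternatives, with log2 fold changes from -1.08 to -0.87 (edgeR, DESeq2 or limma adjusted p at most 9.45e-04), and the share left ran from 47.5% to 54.7%, and that of the Crebbp and Ep300 sum from 66.3% to 76.2%, with 1 library left out. Ep300 ran from 0.05 to 0.28 with 1 library left out, and was called in 1 of 16 alternatives, the replicate block with GC and length offsets (0.22), which counts as 1 acetyltransferase other than Crebbp called higher; by itself the block gave 0.19 (edgeR adjusted p 0.136) and the offsets gave 0.21 (edgeR adjusted p 0.176). Block and offsets together called 10.4% of all genes tested. Kat6b turned to 0.0029 with library totals only, which moved the median of all genes to 0.043. Kat6a ranged from -0.050 to 0.15 and Kat5 from -0.044 to 0.099 with 1 library left out; Kat6a turned without Control replicate 2 and Kat5 without Control replicate 1 (-0.0032), Control replicate 3 (-0.044) or CBP-ifKO replicate 3 (-0.022). Kat5, Kat6a and Kat6b passed the threshold under none of the 16 alternatives. With the longest transcript as the length, the Ep300 to Crebbp ratio was 0.596 in Control and 1.32 in CBP-ifKO. The causes were not tested.

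Over all genes, 1149 were called, 252 of them higher and 897 lower. Leaving out 1 library gave between 498 and 1326 calls, between 76 and 342 higher and between 416 and 984 lower, with 546 calls when Control replicate 3 was left out, 498 for CBP-ifKO replicate 2 and 526 for CBP-ifKO replicate 3. Higher calls numbered 514 beside 667 lower with library totals only, 413 with no filter, and 543 of 1869 with the block and the offsets together. An adjusted p under 0.01 left 476, of which 56 were higher and 420 lower.

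Of the genes in the 9 lists around the acetyltransferases, an alternative added after seeing the data, 0 to 2 were called higher and 0 to 1 lower with 1 library left out. Upper-quartile scaling called 1 higher (Brd8) and library totals only 4 higher (Taf1, Epc2, Brd8 and Ing5). No filter and the block each called 1 lower (Mcrs1), the GC and length offsets 1 lower (Rbbp7), and block and offsets together 4 higher and 3 lower. In every setting the share of list genes called was below that of all genes tested. It was 7.69% beside 10.4% with block and offsets together, and 4.4% beside 6.57% with library totals only. Upper-quartile scaling gave 1.1% beside 6.34%, and leaving out Control replicate 2 gave 2.2% beside 7.24%. Replicate numbers did not pair the libraries: deviations of same-numbered libraries from their group means correlated at 0.077, 0.037 and 0.0022, and with the block 1210 genes were called, Crebbp at -0.95 (edgeR adjusted p 5.41e-07).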

Other observations

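Over the 6 libraries and 17432 genes of at least 1 CPM, the genes whose log2 CPM most resembled that of Crebbp were Rgs8 (Pearson's r 0.999), Mdga1 (0.997) and Slco3a1 (0.997). All 3 were lower in CBP-ifKO, Rgs8 by 0.24, Mdga1 by 0.64 and Slco3a1 by 0.32 on the log2 scale, and 255 genes had an r over 0.95. The libraries differ by genotype, so that any gene lower in CBP-ifKO and low in Control replicate 2 resembles Crebbp in this way. For Ep300 the nearest were Gm37186 (0.997), Gm8855 (0.995) and Slc37a3 (0.993), with 83 genes over 0.95, and Control replicate 2 was the lowest library for each of them. Among the acetyltransferases Ep300 and Kat6a varied together (r 0.917), both with their lowest value in Control replicate 2. Other pairs were about as close, such as Kat8 and Hat1 (r 0.862). Kat6b and Kat8 (r -0.951) and Crebbp and Kat8 (r -0.873) ran in opposite directions. These correlations are descriptions over 6 libraries of 2 groups.

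The pseudogenes Kat2b-ps, Kat6b-ps1 and Kat6b-ps2 had at most 2, 1 and 0 reads in any library. Rnaseh2c, which shares exon bases with Kat5, was at 3.0 to 6.5 CPM with a log2 fold change of -0.05.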
